A study of Rattus norvegicus with 24 samples.

Results

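Messenger RNA of cultured neonatal rat testis cells was compared between 12 h after addition of the gonadotropins LH (luteinizing hormone) and FSH (follicle-stimulating hormone) and 0 h, just before addition. The comparison used 6 of the 24 libraries of the study, with 3 libraries at 12 h and 3 at 0 h, and each 12 h library was set against the 0 h library of the same litter. Genes were kept at 1 CPM (counts-per-million, relative to all reads of a library) or more in at least 3 of the 6 libraries, which left 12171 of 21425 listed genes. The complete mixture of testis cells of wild-type Sprague Dawley rats, isolated on postnatal day 5, had been seeded at high density in matrigel, a basement membrane extract, and kept without serum. After 10 days in culture the 12 h group received LH at 50 mIU/mL and FSH at 20 mIU/mL in fresh medium, and the 0 h group was collected before that. Each library combined 3 cultures of 1 litter, so the 3 litters were the biological replicates. The libraries at 2 h and 48 h after the same treatment, 3 each from the same litters, were used to place the 12 h levels in time. No culture kept for 12 h without hormone was analysed here, nor were the 6 h samples named in the study's design, so effects of the hormones, of fresh medium and of time in culture cannot be told apart.

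LH acts on Leydig cells through its receptor, and FSH acts on Sertoli cells, which surround the germ cells. Both receptors raise cyclic AMP, which within minutes activates transcription of immediate early genes and later of genes for cholesterol handling and steroid synthesis. In Leydig cells cholesterol is taken up or made, moved into mitochondria, cut to pregnenolone and converted step by step to androgens. FSH is known to raise inhibin output and to support Sertoli cell growth in the young testis.

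The 6 libraries held about 15794000 to 25348000 reads, and the deposited values were whole multiples of 1 read. A listed value of 0 allows up to 3 reads, which were 0.118 to 0.190 CPM, for counting error only. The litters differed in how widely genes moved, since 0.0411, 0.427 and 1.57% of genes differed over 2-fold between 0 h and 12 h in litters 1, 2 and 3. In litter 3, 12 h stood apart for the most abundant messenger, the collagen Col1a1, at 28222 CPM against 18606 CPM at 0 h. Values printed in threes below follow the order litter 1, litter 2 and litter 3. Changes are differences of log2(CPM + 1) between 12 h and 0 h of the same litter, given ± standard error from limma, a scale that understates the change of genes at low levels. Defining markers of Sertoli cells (Sox9, Wt1, Amh) and germ cells (Ddx4, Dazl) had reads in every library. Of the full marker lists, 15 of 20 Sertoli cell and 17 of 19 germ cell genes passed the filter. The germ cell marker Stra8 was listed at 0 in all 6 libraries. The Leydig cell hormone Insl3 was listed at 0 in all 12 induction libraries, although at 4.84 to 49.6 CPM in the 12 libraries of the study's other experiment. The ubiquitous translation factor Eef1a1 was listed at 0.0606 to 0.666 CPM in the former and 5132 to 10988 CPM in the latter, so the counting of such genes is uncertain.

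Cyp17a1, the enzyme that turns progestins into androgen precursors, rose at 12 h in all 3 litters. Its level was 0.335, 2.08 and 0.276 CPM at 0 h and 8.79, 26.2 and 9.22 CPM at 12 h, a rise of 26.2, 12.6 and 33.4 times within the litters. The lowest 12 h library lay above the highest 0 h library, and litter 2 was the highest at both times. The log2 fold change was 3.01 ± 0.13 (limma adjusted p = 0.00334 over all 12171 genes). It rested on 7, 50 and 7 reads at 0 h and 191, 414 and 156 reads at 12 h. Cyp17a1 was the 1 gene called higher, at an adjusted p under 0.05 in limma with litter as a block, which is 0.00822% of the genes tested. No gene was called lower (0%), while 299 genes (2.46%) were higher and 474 (3.89%) lower at an unadjusted p under 0.05. With TMM scaling, which sets the bulk of genes equal between libraries, these were 517 higher and 257 lower, so small differences below keep their sign only relative to the median of all genes. TMM scaling and edgeR on the recovered reads each called 2 genes higher and 0 lower, and DESeq2 called 24 higher (0.197%) and 1 lower (0.00822%). The Cyp17a1 call was lost when all 12 induction libraries shared 1 fit with the same litter block (limma adjusted p = 0.0851) and when the litter block was dropped (0.981). Without litter 2 the gene had only 2 libraries above 1 CPM and was not tested, and with a filter of 2 libraries, added after this was seen, its change was 2.94 (limma adjusted p = 0.119). Leaving out litter 3, the litter with the widest changes, raised the counts to 54 higher (0.451%) and 17 lower (0.142%). Fits without a litter have fewer residual degrees of freedom than the 2 of the main fit. Their p-values therefore lean more on a spread pooled over genes and are no separate evidence.

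Cyp17a1 was above its 0 h level by 2 h in each litter, and in litters 1 and 2 it was higher again at 48 h than at 12 h. At 2 h it stood at 0.601, 11.6 and 1.37 CPM and at 48 h at 31.0, 36.3 and 8.82 CPM. The 2 h values rested on 17, 239 and 30 reads, and the difference between 2 h and 0 h was not tested. Litter 3 had the same level at 48 h as at 12 h to within 1 CPM. The 12 h level was above the 2 h level by 1.94 ± 0.40 (limma over 12 libraries, adjusted p = 0.0386), and the 48 h level differed from 12 h by 0.70 ± 0.40 (adjusted p = 0.5002). In bulk libraries, more cells of a type and more messenger per cell cannot be told apart.

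In the fit of all 12 induction libraries with litter as a block, which called 0 genes between 12 h and 0 h, 146 of 12450 genes were higher and 222 lower at 12 h than at 2 h in limma. These were 1.17% and 1.78% of the genes. With TMM scaling the split turned to 165 higher and 101 lower. Between 12 h and 48 h, 54 genes were higher at 48 h (0.434%) and 35 lower (0.281%). All of these counts depended on the litters, Cyp17a1 and the genes below included. Leaving out 1 litter left 0 genes higher and 0 to 8 lower against 2 h, and 0 to 13 higher and 0 to 10 lower between 12 h and 48 h. The comparisons share the 12 h libraries and are not independent of each other.

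**Figure D1:**
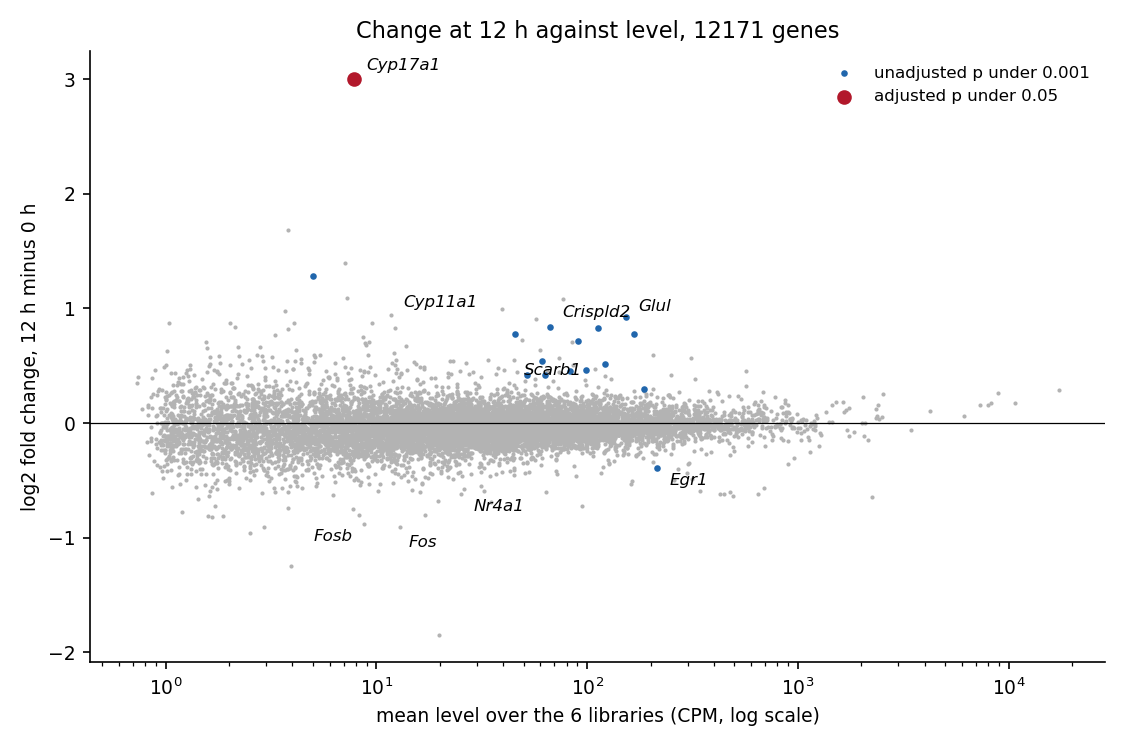
Change between 0 h and 12 h (log2 fold change, vertical axis) against the mean level over the 6 libraries (CPM, log axis), 1 point per gene for 12171 genes. Cyp17a1, the red point at 3.01, was the 1 gene past an adjusted p under 0.05, blue points had an unadjusted p under 0.001, and 6 genes in all were higher and 2 lower by a fitted change of 2-fold or more.

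The cholesterol uptake receptor Scarb1 and the side-chain cleavage enzyme Cyp11a1 were also higher at 12 h in all 3 litters, though limma with all 3 litters called neither. Scarb1, which takes cholesterol esters from lipoproteins into steroid-producing cells, had 45.0, 47.5 and 46.0 CPM at 0 h and 62.7, 97.0 and 62.1 CPM at 12 h. Its groups did not overlap, and the change was 0.64 ± 0.12 (limma adjusted p = 0.598, DESeq2 adjusted p = 0.00116). Ranges did not overlap, with 12 h above 0 h, for 2.4% of all genes and, with 12 h below, for 6.29%. Cyp11a1, which makes pregnenolone from cholesterol, had 5.32, 6.83 and 9.55 CPM at 0 h and 9.94, 27.7 and 10.8 CPM at 12 h. Its 12 h libraries lay just above its 0 h libraries, with most of the difference in litter 2 and little in litter 3. The change of Cyp11a1 was 0.94 ± 0.30 (limma adjusted p = 0.706), and it was 1.33 without litter 3 (limma adjusted p = 0.00186) but 0.47 without litter 2 (limma adjusted p = 0.875). Scarb1 likewise stood at 0.74 without litter 3 (limma adjusted p = 0.00119) and 0.45 without litter 2 (limma adjusted p = 0.875).

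Star and Fdx1, which act beside Cyp11a1 at the mitochondrion, followed another course, with their highest levels at 2 h. Star, which carries cholesterol to the inner mitochondrial membrane, had 35.8, 54.7 and 62.1 CPM at 0 h, 65.8, 194 and 94.8 CPM at 2 h, 34.6, 56.2 and 27.1 CPM at 12 h and 59.7, 72.4 and 64.0 CPM at 48 h. At 12 h litters 1 and 2 were back within 2 CPM of their 0 h level, and litter 3 lay below it. Star fell between 2 h and 12 h (log2 difference -1.48 ± 0.24, limma adjusted p = 0.0256), while against 0 h the difference was -0.39 ± 0.23 (limma adjusted p = 0.706). Fdx1, the ferredoxin that passes electrons to Cyp11a1, had 16.8, 17.9 and 17.9 CPM at 0 h, 24.4, 39.9 and 33.03 CPM at 2 h and 20.3, 21.5 and 14.5 CPM at 12 h. It fell between 2 h and 12 h by 0.75 ± 0.14 on the log2 scale (limma adjusted p = 0.0310) and differed from 0 h by 0.08 ± 0.13 (limma adjusted p = 0.873).

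**Figure D2:**
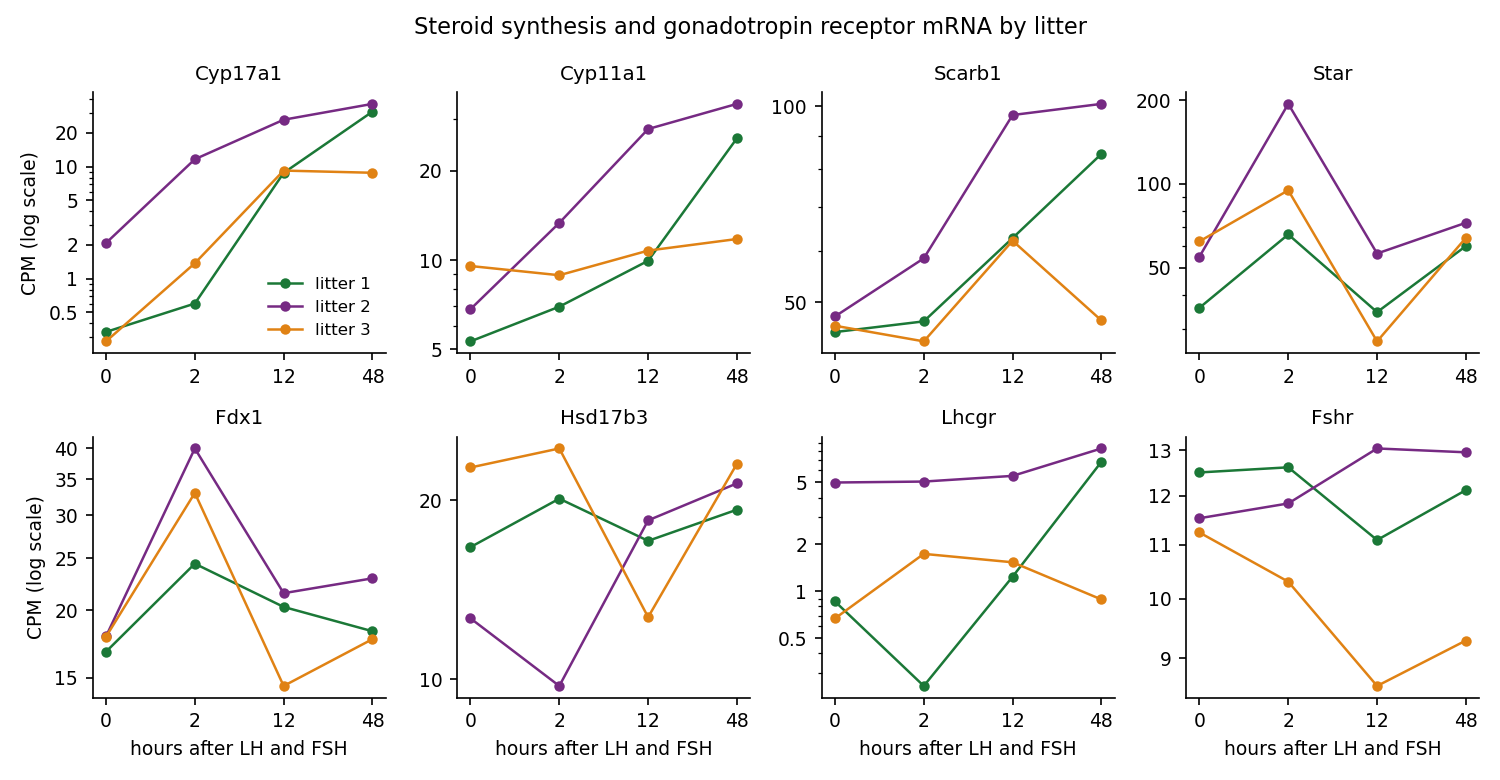
Levels of 8 genes of steroid synthesis and gonadotropin reception (CPM, log axis, a scale of its own in each panel) at 0, 2, 12 and 48 h (evenly spaced), 1 line per litter and 1 library per point. Cyp17a1 is above its 0 h level in every litter at 12 h, Star and Fdx1 have their peak at 2 h in every litter, and Lhcgr lies at 5.00 to 8.26 CPM in litter 2.

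Promoter sequences were looked up for these 5 genes and for 6 other genes with a high 12 h level described below, and 4 of the 11 had a single entry in RefSeq's table (build GRCr8, while the reads were aligned to mRatBN7.2), namely Cyp11a1, Fdx1, Crispld2 and Itgbl1. Glul and Selenop had 2 entries each and were not searched, and Cyp17a1, Star, Scarb1, Adgrb1 and Mill1 had no entry. Those of Cyp11a1 and Fdx1 are shown because they encode partners of 1 reaction but differed in their course. The 250 bases before the annotated start are printed 5′ to 3′ on the strand of the gene, Cyp11a1 at chr8:67318415-67318664 (plus strand) and Fdx1 at chr8:61183646-61183895 (minus strand). Capitals mark the nuclear receptor motif AGGTCA on either strand, which was added to the search after the sequences were seen.
Cyp11a1: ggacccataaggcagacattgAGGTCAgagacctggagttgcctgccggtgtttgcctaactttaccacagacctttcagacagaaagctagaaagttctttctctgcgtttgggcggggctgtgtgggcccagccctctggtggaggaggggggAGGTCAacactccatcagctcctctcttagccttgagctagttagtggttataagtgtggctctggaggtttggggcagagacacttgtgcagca
Fdx1: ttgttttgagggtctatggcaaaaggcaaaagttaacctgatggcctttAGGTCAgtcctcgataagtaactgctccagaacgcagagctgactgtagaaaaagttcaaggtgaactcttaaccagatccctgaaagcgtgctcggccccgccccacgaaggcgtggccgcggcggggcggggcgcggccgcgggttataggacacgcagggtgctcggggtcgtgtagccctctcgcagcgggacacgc
Cyp11a1 held 2 matches of AGGTCA and Fdx1 held 1. Outside steroid synthesis, Crispld2 also held 1 and Itgbl1 held 0, and 14.1% of 33469 promoter windows of this length held at least 1. None of these 4 windows held the cyclic AMP response element TGACGTCA (in 1.59% of windows), its core TGACG (18.2%, which counts every full element), the longer NR5A1 motif CAAGGTCA (1.33%, which contains AGGTCA) or TATAAA (12.9%), searched on both strands. A match describes letters and not binding.

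The later enzyme Hsd17b3 and the regulators Nr5a1 and Nr0b1 were not called at 12 h against 0 h. Hsd17b3, which completes testosterone, had 16.7, 12.7 and 22.7 CPM at 0 h and 17.1, 18.5 and 12.7 CPM at 12 h, so that it was higher in litters 1 and 2 and lower in litter 3 (log2 fold change -0.08 ± 0.23, limma adjusted p = 0.922). Nr5a1, the nuclear receptor that drives steroid synthesis genes, had 167, 203 and 182 CPM and 185, 213 and 162 CPM (0.02 ± 0.07, limma adjusted p = 0.945). Its groups overlapped at 12 h against 0 h, and it was higher at 12 h than at 2 h by 0.33 ± 0.07 (limma adjusted p = 0.0458). Nr0b1, which represses targets of Nr5a1, had 2.06, 2.58 and 2.09 CPM at 0 h and 2.49, 3.99 and 9.70 CPM at 12 h (0.82 ± 0.31, limma adjusted p = 0.706), with the largest difference in litter 3. Hsd3b2, which would convert pregnenolone, was listed at 0 in all 6 libraries, and Hsd3b1 was not analysed here. Across the list of cholesterol delivery and steroid synthesis, 21 of 24 members were tested, 1 was called higher and 0 lower, 6 were higher and 3 lower in all 3 litters, and the median change was 0.01. Over all genes the median was -0.04, and 9.62% were higher and 21.6% lower in all 3 litters. Of the 489 members of all lists that were tested, limma, limma with TMM scaling and edgeR each called only Cyp17a1, and DESeq2 called Cyp17a1, Scarb1 and Col11a1 higher and Fos lower. Limma called 1 of them without litter 1, 0 without litter 2 and 15 without litter 3, of which 7 were higher, Cyp17a1, Scarb1, Cyp11a1 and Col11a1 among them, and 8 lower, among them Fos, Egr1, Nr4a1 and Spry1.

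The receptors themselves were not called. Lhcgr, the LH receptor of Leydig cells, had 0.862, 5.00 and 0.671 CPM at 0 h and 1.24, 5.51 and 1.54 CPM at 12 h, higher in each litter by a small amount (0.33 ± 0.17, limma adjusted p = 0.706). Litter 2 had the highest Lhcgr at both times, as it had for Cyp17a1 and for Hao2, an oxidase listed as a Leydig cell marker, at 0.910, 4.12 and 1.07 CPM and 2.58, 5.00 and 1.54 CPM. Scarb1 and Nr5a1 of the same marker list were also highest in litter 2 at both times. Star, Cyp11a1 and Hsd17b3 were highest in litter 3 at 0 h and in litter 2 at 12 h, so the markers did not rank the litters alike. Fshr, the FSH receptor of Sertoli cells, had 12.5, 11.5 and 11.2 CPM and 11.1, 13.0 and 8.57 CPM, with overlapping groups (-0.12 ± 0.13, limma adjusted p = 0.807). Of 9 Leydig cell markers tested, 1 was called higher, and 6 were higher and 0 lower in all 3 litters, beside 9.62% and 21.6% of all genes. The median change of the markers was 0.33, or 0.27, 0.23 and 0.30 by litter. This list shares most of its members, Cyp17a1 among them, with the steroid list and is no separate evidence. The summed level of its 11 members was 279, 344 and 330.0 CPM at 0 h and 329, 459 and 295 CPM at 12 h, with Insl3 and Hsd3b2 at 0, so the groups overlapped. Whether the number of Leydig cells changed was not tested.

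Among genes outside steroid synthesis, Crispld2 was the nearest to a call in limma. Crispld2, a secreted protein of connective tissue, had 44.1, 37.3 and 62.5 CPM at 0 h and 77.7, 72.8 and 106 CPM at 12 h. The groups did not overlap, and the change was 0.84 ± 0.07 (limma adjusted p = 0.0646, limma after TMM scaling 0.0413, edgeR 0.0385). Its level went on to 182, 118 and 130.0 CPM at 48 h. Adgrb1, a receptor through which cells engulf dying cells, had 54.0, 118 and 72.5 CPM and 121.7, 196 and 109.8 CPM (0.83 ± 0.11, limma adjusted p = 0.462). For Adgrb1 every litter was higher at 12 h, but the litters differed so much at 0 h that the groups overlapped.

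The other genes named for a small unadjusted p on the higher side had mixed roles. Limma with all 3 litters called none of them, while DESeq2 called all of them but Pmp22. Itgbl1, a secreted integrin-like protein, differed by 0.72 ± 0.10, with 82.1, 32.3 and 90.1 CPM at 0 h and 111, 58.2 and 167 CPM at 12 h. Glul, which makes glutamine, had 98.3, 130.0 and 87.8 CPM and 159, 205 and 238 CPM, without overlap (0.92 ± 0.15, limma adjusted p = 0.578). Selenop, the selenium transport protein, had 105, 137 and 122.4 CPM and 157, 211 and 269 CPM, also without overlap (0.77 ± 0.11, limma adjusted p = 0.462). Both were highest at 48 h in every litter, at 414, 278 and 264 CPM for Glul and 429.8, 320.1 and 332 CPM for Selenop. The crosslinking enzyme Tgm2 (0.52 ± 0.08), the hypoxia-inducible factor Epas1 (0.46 ± 0.07) and the cholesterol exporter Abca1 (0.47 ± 0.07) were likewise higher in all 3 litters. Tgm2 had 99.1, 101 and 96.2 CPM at 0 h, 149, 160.3 and 120.0 CPM at 12 h and 432, 280.0 and 254 CPM at 48 h. For Tgm2 the later step was the larger, at 1.13 ± 0.12 between 12 h and 48 h (limma adjusted p = 0.00775). Epas1 rose between 12 h and 48 h by 0.90 ± 0.14 (limma adjusted p = 0.0255), to 229, 183 and 138 CPM. The remaining genes of this group were Mill1, Lonrf2, Lpp, Nt5dc3 and Pmp22, with changes of 0.78, 0.54, 0.42, 0.42 and 0.30 (limma adjusted p of 0.462 to 0.598). Of the 14 genes named on the higher side, Cyp17a1 and Crispld2 included, limma called 1 without litter 1 (Cyp17a1), 0 of the 13 tested without litter 2 and 14 without litter 3.

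DESeq2 called 14 of the 15 genes with the smallest p-values on the higher side, Cyp17a1 among them and Pmp22 not, and 10 more. The 10 included Scarb1, the matrix genes Col11a1 (log2 fold change 0.57 in limma), Col4a3 (0.51) and Adamtsl2 (0.41), the oxidase Cyp1b1 (0.57) and Cd74, a chaperone of antigen presentation (1.69), all but Scarb1 named after their values were seen. Cd74 had 1.39, 0.708 and 1.34 CPM at 0 h and 2.81, 6.65 and 9.99 CPM at 12 h, with the highest value in litter 3. Of the 25 genes DESeq2 called, 23 were also called by limma without litter 3. The DESeq2 calls were made on the same 6 libraries and are no independent check. Summed macrophage markers stood at 222, 41.8 and 79.2 CPM at 0 h and 190.3, 60.7 and 243 CPM at 12 h beside these genes, and their part in the differences of Cd74, Selenop and Glul was not tested.

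Most immediate early genes, which cells transcribe within minutes of a stimulus, were lower at 12 h than at 0 h in every litter, but limma with all 3 litters called none. Fos, a subunit of the AP-1 transcription factor, had 12.1, 24.9 and 14.04 CPM at 0 h, 14.2, 22.1 and 36.2 CPM at 2 h and 7.96, 13.6 and 4.97 CPM at 12 h. Each litter was lower at 12 h than at 0 h, although the groups overlapped (-0.90 ± 0.16, limma adjusted p = 0.598, DESeq2 adjusted p = 0.0145). Fosb, of the same family as Fos, had 6.80, 18.2 and 10.1 CPM at 0 h, 16.5, 21.3 and 111 CPM at 2 h and 4.74, 8.74 and 3.72 CPM at 12 h (-0.88 ± 0.17, limma adjusted p = 0.598). Nr4a1, an orphan nuclear receptor induced by cyclic AMP, had 22.03, 47.2 and 23.9 CPM, 49.8, 62.5 and 86.4 CPM and 17.7, 27.7 and 13.2 CPM at those times (-0.62 ± 0.12, limma adjusted p = 0.598). At 2 h these genes were highest in litter 3, and at 12 h they were lowest in it. Egr1, a zinc finger factor, was lower at 12 h without overlap, at 209, 293 and 234 CPM against 166, 204 and 187 CPM (-0.39 ± 0.06, limma adjusted p = 0.551). Without litter 3 limma called Fos (-0.69, adjusted p = 0.0149), Egr1 (-0.43, 0.00325) and Nr4a1 (-0.53, 0.0396) lower, but not Fosb (-0.71, 0.0536). Without litter 1 or litter 2 limma called none of these 4 genes.

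All 19 members of the immediate early list were tested. In all 3 litters 11 were lower and 1 was higher, beside 21.6% and 9.62% of all genes. At an unadjusted p under 0.05, 10 members were lower, beside 3.89% of all genes, and 0 were called in limma with all 3 litters. The list's median change was -0.36, or -0.18, -0.27 and -0.49 by litter, against -0.04 for all genes. At 2 h the litters' medians against 0 h were 0.23, -0.01 and 0.93, so most members were above 0 h at 2 h in litters 1 and 3, and the median was near 0 in litter 2. Against 2 h, 5 of the 19 were called lower at 12 h, beside 1.78% of all genes. The 5 were Fos (-1.36 ± 0.29), Fosb (-2.46 ± 0.53), Egr1 (-0.41 ± 0.09), Jund (-0.48 ± 0.10) and Klf10 (-0.69 ± 0.11), with limma adjusted p of 0.0253 to 0.0418.

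Feedback genes of the same pathways were not called at 12 h against 0 h with all 3 litters. Nr4a1 and Nr4a3, from the list of cyclic AMP feedback and CREB targets, fell between 2 h and 12 h by 1.74 and 1.63 on the log2 scale (limma adjusted p = 0.0204 and 0.0489). Against 0 h, 2 of that list's 20 tested members were higher and 2 lower in all 3 litters, with a median of -0.06. The repressor Crem had 18.5, 23.4 and 21.3 CPM at 0 h and 18.8, 19.2 and 18.3 CPM at 12 h (-0.15 ± 0.10), and the phosphodiesterase Pde4d had 2.30, 3.25 and 3.08 CPM and 2.30, 3.80 and 4.14 CPM (0.17 ± 0.14). Among 13 tested feedback inhibitors and targets of the kinase ERK, 7 were lower and 0 higher in all 3 litters, beside 21.6% and 9.62% of all genes. The ERK list had a median of -0.18, with 4 lower at an unadjusted p under 0.05, beside 3.89% of all genes, and 0 called. Spry1, which restrains receptor tyrosine kinases, had 158, 138 and 152 CPM at 0 h and 114, 111 and 132 CPM at 12 h, without overlap (-0.33 ± 0.07, limma adjusted p = 0.671), and was called lower without litter 3 (-0.39, limma adjusted p = 0.00740). Spry1 was already at 113, 92.0 and 133 CPM at 2 h. The phosphatase Dusp5 differed by -0.37 ± 0.14 and the inhibitor Spred3 by -0.36 ± 0.10.

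**Figure D3:**
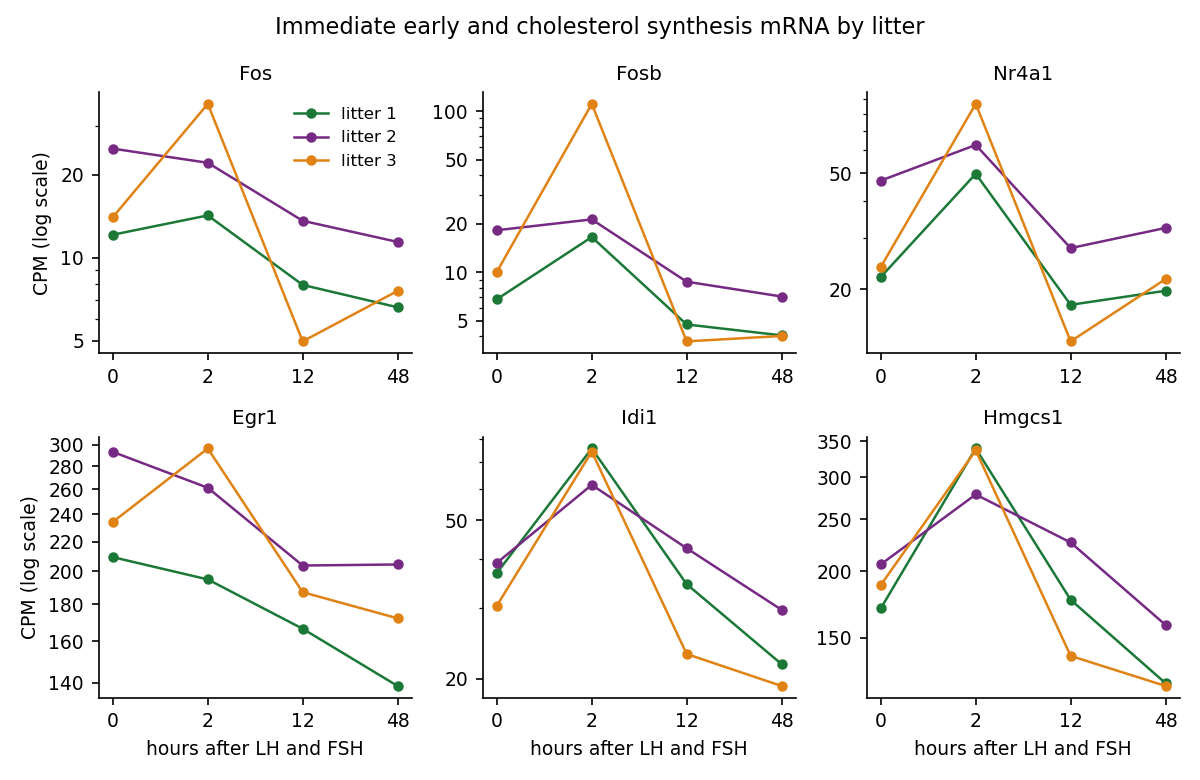
Levels of 4 immediate early genes (Fos, Fosb, Nr4a1, Egr1) and 2 genes of cholesterol synthesis (Idi1, Hmgcs1) in CPM (log axis, a scale of its own in each panel) at 0, 2, 12 and 48 h (evenly spaced), 1 line per litter and 1 library per point. At 12 h the early genes lie below 0 h in every litter, and the cholesterol genes have left their 2 h peak, with litter 3 lowest.

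Of the 15 genes named as lower, the others were a mixed group and none was called, with all 3 litters or without any 1 of them. They were Spata7 (-0.52), Tuba3a (-0.45), Egr4 (-0.46), Fam219b (-0.29), Fabp5 (-0.41), Usp9y (-0.55), Ly6h (-0.59), Bcam (-0.25), Eno2 (-0.32) and Vegfa (-0.42). Limma adjusted p-values of these 10 ran from 0.632 to 0.706. Vegfa, the vascular growth factor, had 48.9, 56.2 and 43.9 CPM at 0 h and 42.8, 35.3 and 32.6 CPM at 12 h, and the glycolytic enzyme Eno2 had 30.0, 29.1 and 29.0 CPM and 23.9, 23.05 and 22.9 CPM. Neither overlapped between the groups, and Eno2 was back at 33.3, 31.8 and 35.0 CPM by 48 h (against 12 h 0.50 ± 0.07, limma adjusted p = 0.0206).

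Many cholesterol synthesis genes were lower at 12 h than at 2 h. Idi1, an isomerase of the early steps, had 36.8, 39.0 and 30.5 CPM at 0 h, 75.6, 61.3 and 74.3 CPM at 2 h and 34.5, 42.5 and 23.1 CPM at 12 h. Hmgcs1, which joins acetyl units at the start of the route, had 170.4, 206 and 188 CPM, 339.6, 278 and 337 CPM and 177, 226 and 139 CPM at these times. In litter 3 both were below their 0 h level at 12 h, and in litter 2 both were slightly above it. Of 23 tested members of the list, limma called 12 lower at 12 h than at 2 h and 0 higher, beside 1.78% and 1.17% of all genes. Among the 12 were Idi1 (-1.09 ± 0.16, limma adjusted p = 0.0252) and Hmgcs1 (-0.84 ± 0.14, 0.0266). Against 0 h no member of the list was called, with 0 at an unadjusted p under 0.05 as well, and the list median was -0.09. By litter the medians at 12 h were 0.02, 0.14 and -0.39, and at 48 h they were -0.36, -0.16 and -0.59.

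Sertoli cell hormones were not called at 12 h against 0 h. Inhbb, a subunit of inhibin and activin, had 676, 583 and 589 CPM at 0 h and 673, 785 and 775 CPM at 12 h (0.27 ± 0.10, limma adjusted p = 0.706). Inha, the shared inhibin subunit, had 232, 209 and 236 CPM and 260.4, 260.5 and 219 CPM (0.12 ± 0.09), higher in litters 1 and 2. Inhba had 29.2, 19.5 and 30.6 CPM and 28.9, 26.9 and 35.4 CPM (0.21 ± 0.11). Amh, the hormone of immature Sertoli cells, differed by 0.01 ± 0.11, and the germ cell growth factors Kitlg and Gdnf by -0.06 ± 0.06 and -0.20 ± 0.12. Follistatin (Fst), which binds activin, had 4.65, 7.87 and 9.23 CPM at 0 h, 9.12, 11.7 and 13.5 CPM at 2 h and 6.81, 6.20 and 9.93 CPM at 12 h (0.09 ± 0.17 against 0 h). Limma adjusted p-values for Inha, Inhba, Amh, Kitlg, Gdnf and Fst against 0 h ran from 0.706 to 0.979. The chemokine Cxcl12 had 5.27, 5.99 and 7.73 CPM and 8.98, 6.71 and 9.87 CPM (0.38 ± 0.14). Of 13 tested Sertoli cell hormones and growth factors, 2 were higher and 1 lower in all 3 litters, with a median of 0.09 and 0 called.

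Sertoli cell markers and junction genes were lower mainly in litter 3. Of 15 tested Sertoli cell markers, 5 were lower and 0 higher in all 3 litters, beside 21.6% and 9.62% of all genes. The median of these markers was -0.17, or -0.03, 0.01 and -0.52 by litter. Sox9, the regulator of Sertoli cell identity, had 144, 178 and 187 CPM at 0 h and 149, 169 and 109.9 CPM at 12 h (-0.27 ± 0.15). Cldn11, a claudin of the blood-testis barrier, had 281, 469 and 262 CPM and 248, 391 and 172 CPM, lower in every litter (-0.35 ± 0.09, limma adjusted p = 0.706). Of 11 tested junction genes of that barrier, 6 were lower and 2 higher in all 3 litters, beside the same shares of all genes. Their median was -0.16, and 0 were called. The summed level of the 20 Sertoli cell markers was 3907, 4449.7 and 4049.5 CPM at 0 h and 3767, 4392 and 2965 CPM at 12 h, so that it was near its 0 h level in litters 1 and 2 and below it in litter 3. Fewer Sertoli cells and less messenger per Sertoli cell were not separated.

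Basement membrane genes were slightly higher in most cases. Lama2, a laminin chain, had 167, 194 and 127 CPM at 0 h and 203, 219 and 321 CPM at 12 h, without overlap (0.59 ± 0.21, limma adjusted p = 0.706). Col4a5 and Col4a6, collagen chains of this layer, differed by 0.20 ± 0.06 and 0.23 ± 0.07. Col4a6 had 186, 154 and 206 CPM at 12 h and 301, 195 and 269.7 CPM at 48 h, a rise of 0.47 ± 0.08 (limma adjusted p = 0.0355). Among 16 members tested, 10 were higher and 0 lower in all 3 litters, beside 9.62% and 21.6% of all genes. At an unadjusted p under 0.05, 5 members were higher, beside 2.46% of all genes, and 0 were called. The median was 0.12, or 0.08, 0.09 and 0.16 by litter, and the sum was 24350.3, 22865 and 24942 CPM at 0 h and 25423, 25252 and 27991 CPM at 12 h. Fibrillar collagens and their crosslinkers had a median of 0.10 over 17 members, of which 5 were higher and 0 lower in all 3 litters. Col1a1 had 17547, 9837 and 18606 CPM at 0 h and 17328, 12053 and 28222 CPM at 12 h (0.29 ± 0.16, limma adjusted p = 0.706).

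Germ cell markers were lower in most cases. Sohlh1, a transcription factor of spermatogonia, had 5.13, 3.62 and 6.86 CPM at 0 h and 3.77, 2.41 and 3.37 CPM at 12 h (-0.55 ± 0.15, limma adjusted p = 0.706). Tdrd9, a helicase that silences transposons, had 15.2, 19.8 and 22.5 CPM and 12.8, 14.4 and 15.6 CPM, lower in each litter (-0.39 ± 0.10). The germ line helicase Ddx4 had 6.71, 4.62 and 7.18 CPM and 4.83, 2.79 and 6.09 CPM (-0.39 ± 0.13), and the RNA-binding protein Dazl 11.2, 10.53 and 14.9 CPM and 10.4, 8.29 and 8.28 CPM (-0.39 ± 0.15). Of 17 tested members of 19, 10 were lower and 0 higher in all 3 litters, beside 21.6% and 9.62% of all genes. At an unadjusted p under 0.05, 7 members were lower, beside 3.89% of all genes, and 0 were called. The markers had a median of -0.24, or -0.11, -0.44 and -0.21 by litter. Summed, they stood at 169.8, 162 and 203 CPM and 154, 129.6 and 167 CPM, and at 187, 126 and 142 CPM at 48 h, where litter 1 was above its 0 h level.

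Macrophage markers did not move alike in the litters. Csf1r, the receptor on which macrophages depend, had 18.4, 3.16 and 4.81 CPM at 0 h and 17.7, 4.43 and 25.2 CPM at 12 h (0.83 ± 0.40, limma adjusted p = 0.706). Lysozyme (Lyz2) had 144, 17.1 and 47.8 CPM and 123.1, 28.8 and 151 CPM (0.71 ± 0.31). Both were slightly lower at 12 h in litter 1, somewhat higher in litter 2 and several times higher in litter 3. Over 11 tested markers the litter medians were -0.23, 0.35 and 1.64, 1 marker was higher and 0 lower in all 3 litters, and the list median of 0.47 thus came from litter 3 above all. The library with the most macrophage messenger at 0 h, litter 1, had 222 CPM in sum, over 5 times that of litter 2. In the resident macrophage marker Cd163 all 6 libraries were listed under 1 CPM.

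Messengers encoded by mitochondrial DNA differed between litters too. Mt-co1, a subunit of cytochrome oxidase, had 2071, 3768 and 2359.8 CPM at 0 h and 2446, 1467 and 1340.4 CPM at 12 h (-0.65 ± 0.27, limma adjusted p = 0.706). It was higher at 12 h in litter 1 and lower in litters 2 and 3, with the highest 0 h level in litter 2. Mt-nd3 was lower in each litter, at 103, 114 and 90.9 CPM and 91.8, 96.5 and 76.1 CPM (-0.22 ± 0.06). The 12 tested mitochondrial messengers had medians of 0.28, -1.30 and -0.79 by litter and -0.61 in all, and only Mt-nd3 was lower in all 3 litters. Nuclear genes of the respiratory chain had a median of -0.07 over 16 members. In all 3 litters 7 were lower and 0 higher, beside 21.6% and 9.62% of all genes.

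**Figure D4:**
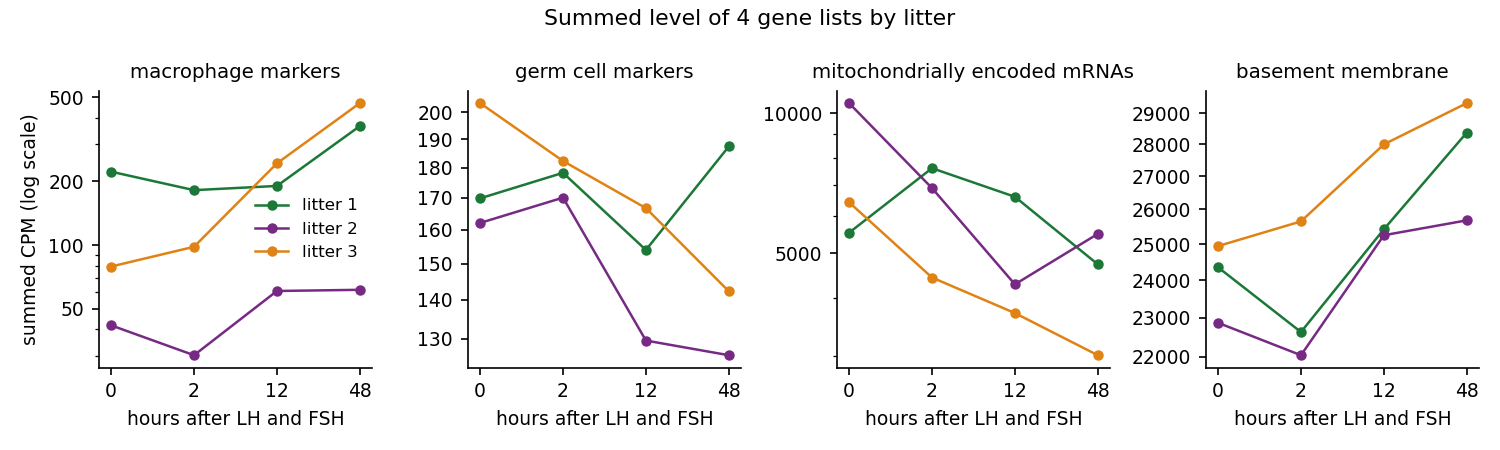
Summed levels of 4 gene lists (CPM, log axis, a scale of its own in each panel) at 0, 2, 12 and 48 h (evenly spaced), 1 line per litter and 1 library per point. At 12 h macrophage markers are above 0 h in litters 2 and 3 but not in litter 1, mitochondrial messengers are below 0 h in litters 2 and 3 only, and germ cell markers are below and basement membrane genes above 0 h in every litter.

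The remaining lists had medians between -0.34 and 0.14, with 0 members called against 0 h. The lowest was that of prostaglandin and inflammatory genes, of which 3 of 7 tested were lower and 0 higher in all 3 litters. Over all genes 21.6% were lower and 9.62% higher in all 3 litters. Inhibitors of the cell cycle and p53 targets had a median of -0.17, with 7 of 16 lower in all 3 litters, and Btg2, an antiproliferative gene of the immediate early list, had 29.2, 49.4 and 51.3 CPM at 0 h and 22.7, 37.9 and 19.5 CPM at 12 h (-0.69 ± 0.20). Genes of DNA replication and mitosis had medians of 0.08 and 0.04, and were higher in litter 3 (0.33 and 0.31) but not in litters 1 and 2. Peritubular myoid markers had a median of -0.03 over 12 members, which turned to 0.01 with TMM scaling. Housekeeping genes, listed without regard to the treatment, had -0.07 over 11.

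**Figure D5:**
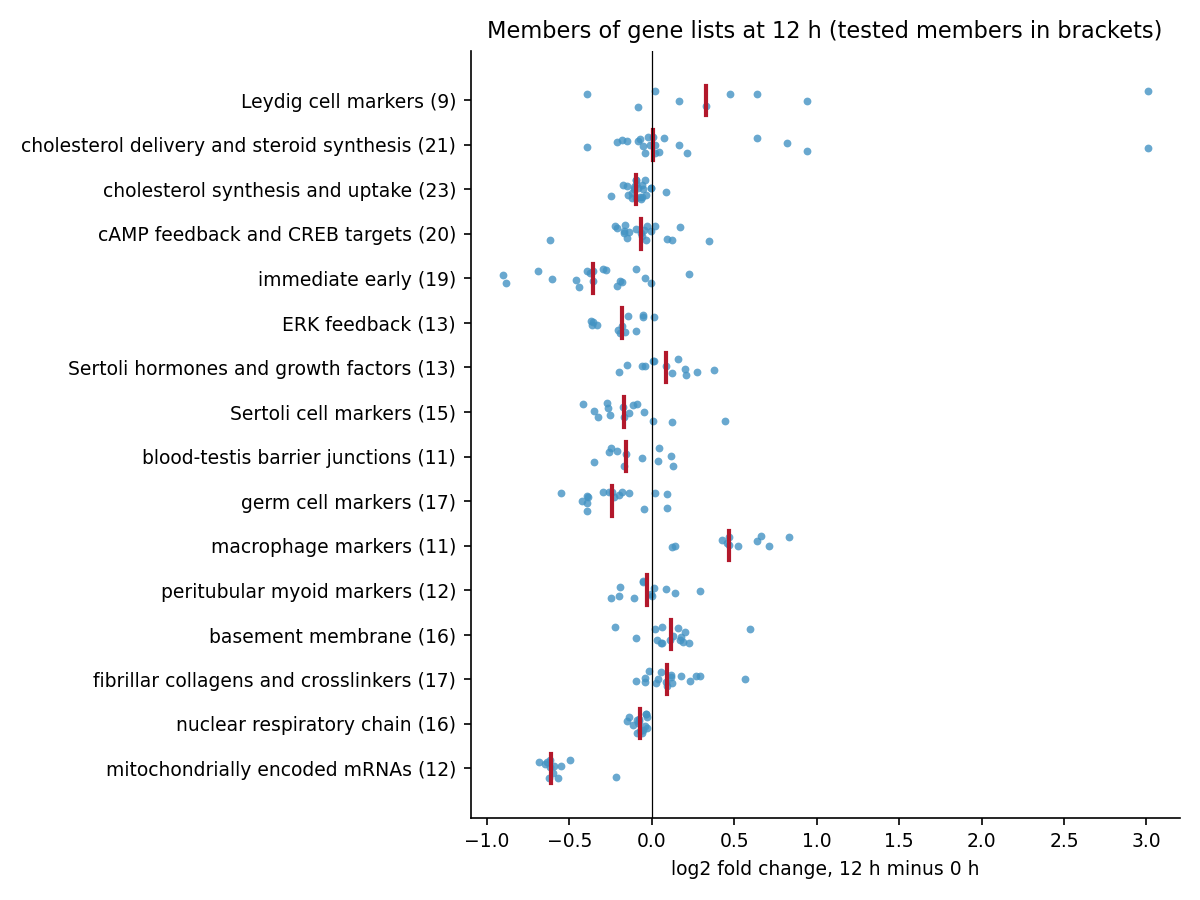
Change between 0 h and 12 h (log2 fold change) for the tested members of 16 gene lists, 1 point per gene, with the list median as a red bar and the number of tested members in brackets. Cyp17a1, at 3.01, appears in both upper lists, the immediate early median is -0.36, and the medians of macrophage markers and mitochondrial messengers, 0.47 and -0.61, hide opposite signs between litters.

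Among the genes named above, Crispld2, Adgrb1, Itgbl1, Tgm2, Pmp22 and Adamtsl2 were higher at 12 h than at 2 h in limma, by 0.97, 0.93, 0.72, 0.76, 0.39 and 0.62. Adamtsl2, a secreted matrix protein, had 106, 77.5 and 128 CPM at 0 h, 80.9, 86.2 and 96.8 CPM at 2 h, 119, 118 and 178 CPM at 12 h and 271, 229 and 268 CPM at 48 h. It was highest at 48 h in every litter. The transcription factor Cebpb, with 49.7, 41.9 and 41.6 CPM at 0 h, 41.2, 40.1 and 36.7 CPM at 12 h and 57.6, 50.7 and 64.1 CPM at 48 h, rose after 12 h by 0.53 ± 0.09 (limma adjusted p = 0.0297). Mill1, a relative of class I histocompatibility proteins, had 34.7, 31.4 and 33.5 CPM at 0 h, 56.3, 69.6 and 48.6 CPM at 12 h and 114, 95.4 and 80.2 CPM at 48 h, a rise of 0.72 ± 0.13 after 12 h (limma adjusted p = 0.0390). The laminin receptor Bcam, with 143, 161 and 96.5 CPM at 2 h and 120.3, 131 and 82.1 CPM at 12 h, fell between these times by 0.26 ± 0.05 on the log2 scale (limma adjusted p = 0.0380).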

How the data were processed

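Messenger RNA was captured with poly-T beads and copied from random hexamers into non-directional libraries, per the labels' protocols, so a gene and its antisense partner cannot be told apart. Reads were aligned with STAR to mRatBN7.2, per the submitters' processing notes. For the counting tool and annotation, nothing was given in the sources used here. The values deposited by the authors are CPM, reads relative to all those of the library, for 21425 gene symbols without coordinates, and 19696 matched a RefSeq symbol or synonym. Of the values 100% were whole multiples of 1 read to within 0.01 read, and 4.25 to 4.61% of the reads of the 6 libraries lay outside the listed genes.

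Differences in log2(CPM + 1) were fitted with limma 3.58.1 in R 4.3.3, with time and litter as terms and an empirical Bayes trend, for genes at 1 CPM or more in 3 of the 6 libraries. The p-values are 2-sided with Benjamini-Hochberg adjustment over all genes kept, and a gene was called under 0.05. The 2 h and 48 h contrasts came from 1 such fit of 12 libraries. Litter was a block because the comparison was defined by litter, which the labels give for each library. After group means were removed, the 0 h and 12 h libraries of the same litter correlated across genes at 0.341, 0.549 and 0.200. For different litters the values were -0.426 to 0.157. Removing group means ties these correlations to each other, so they are a weak check of the pairing. Count tests (edgeR 4.0.16, DESeq2 1.42.0) used the recovered reads as an alternative, and pseudocounts of 0.5 and 0.1, other filters, TMM scaling, no block, all 12 libraries and leaving out each litter were tried. The procedure was tested on simulated data in the layout of the 6 libraries, where false calls exceeded the nominal share. This bears on the limma call at 12 h against 0 h, and the fit of 12 libraries was not simulated.

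The comparison and the 37 gene lists were chosen with earlier results of these data known. The lists hold 565 symbols, with 23 not analysed here and 3 found through a synonym. Genes were named as the 15 per direction with the largest change among called genes that moved alike in all 3 litters, whose groups did not overlap, with 5 CPM or more on average where they were higher, and a symbol that is not only an identifier, filled by the smallest unadjusted p, as a panel of 22 genes, and as up to 4 called or 2 other members of a list by size. Further members were named after their values were seen, and some genes that the rule names are not reported here. Promoters came from RefSeq (GRCr8).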

Additional observations from a re-analysis of the deposited data

Results flagged for a closer look

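The 12 h level differed from the 2 h level, or the 48 h level from the 12 h level, in limma for several of the genes named above, which means that the changes from 0 h differ between these times. Levels higher at 12 h than at 2 h were those of Cyp17a1 (log2 difference 1.94), Crispld2 (0.97), Adgrb1 (0.93), Itgbl1 (0.72), Tgm2 (0.76), Pmp22 (0.39), Adamtsl2 (0.62) and Nr5a1 (0.33), with limma adjusted p of 0.0204 to 0.0458. Levels lower at 12 h than at 2 h were those of the immediate early and cyclic AMP genes Egr1 (-0.41), Fos (-1.36), Fosb (-2.46), Jund (-0.48), Klf10 (-0.69), Nr4a1 (-1.74) and Nr4a3 (-1.63), with limma adjusted p of 0.0204 to 0.0489. Star (-1.48), Fdx1 (-0.75), Idi1 (-1.09), Hmgcs1 (-0.84) and the laminin receptor Bcam (-0.26) were lower too, with limma adjusted p of 0.0252 to 0.0380, and so were Gclc (-0.67), Gclm (-0.32), Txnrd1 (-0.23), Srxn1 (-0.84) and Hmox1 (-0.54), with limma adjusted p of 0.0256 to 0.0444.

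Between 12 h and 48 h the level rose for Tgm2 (1.13), Epas1 (0.90), Mill1 (0.72), Eno2 (0.50), Cebpb (0.53), Col4a6 (0.47), Col4a3 (1.06), Adamtsl2 (0.91) and Cdkn1a (0.72), with limma adjusted p of 0.00775 to 0.0390.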

How the results depend on the processing

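Between 12 h and 0 h limma called 1 gene higher and 0 lower. The count higher was 0 with no replicate block, 2 with TMM scaling, 2 with edgeR, 24 with DESeq2 and 0 in a fit of all 12 libraries, and 0 to 54 when a litter was left out. DESeq2 called 1 gene lower, and leaving out a litter gave 0 to 17. With a filter of 2 libraries, chosen after seeing the data, the counts without litter 2 were 0 higher and without litter 3 were 49 higher and 16 lower.

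At 12 h against 2 h, where 146 genes were higher and 222 lower, no replicate block gave 0 and 0, no filter on low values 37 and 59, and DESeq2 447 and 279, while TMM scaling and edgeR each gave 101 lower. Leaving out a litter gave 0 higher and 0 to 8 lower. At 48 h against 12 h, where 54 were higher and 35 lower, no replicate block gave 0 and 0, no filter 11 and 7, edgeR 35 and 23, DESeq2 172 and 111, and leaving out a litter 0 to 13 and 0 to 10. The causes were not tested.

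Of 1234 values for 83 named genes under the alternatives to the 12 h against 0 h comparison, 1129 kept their direction and their side of the threshold. This count is no measure of stability. Apart from Cyp17a1 the genes were not called in the main fit, so keeping their side meant staying uncalled. With no block, other filters or all 12 libraries the fitted change was the same as in the main fit, so its direction could not turn. A call was gained in 65, most of them without litter 3 or with DESeq2, and lost in 3, all for Cyp17a1. With no replicate block Cyp17a1 had 3.01 (limma adjusted p = 0.981). The sign turned in 37 values, none of them called. Klf10 turned to 0.034 with TMM scaling, 0.034 with edgeR and 0.033 with DESeq2, Gclm to 0.034 with TMM scaling, 0.036 with edgeR and 0.034 with DESeq2, and Srxn1 to 0.013 with pseudocount 0.1, 0.021 with TMM scaling and 0.029 with edgeR. Under the filter of 2 libraries Fdx1 had -0.012 and Nr5a1 -0.0072 without litter 2, and Gclm 0.0029 without litter 3. The other turns came when a litter was left out, under either filter, where the log2 differences ranged as follows: Fshr -0.26 to 0.0028, Fdx1 -0.016 to 0.26, Hsd17b3 -0.38 to 0.27, Fst -0.10 to 0.28, Amh -0.16 to 0.14, Idi1 -0.24 to 0.014, Hmgcs1 -0.19 to 0.094, Nr5a1 -0.046 to 0.11, Klf10 -0.099 to 0.13, Gclm -0.024 to 0.0048, Srxn1 -0.088 to 0.10.

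With 3 litters and about 15794000 to 25348000 reads, differences of lowly expressed genes such as Lhcgr rest on few reads.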

Other observations

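Among antioxidant genes driven by the stress factor NRF2, 5 were high at 2 h and lower by 12 h. Gclc, which makes the precursor of glutathione, had 59.9, 65.5 and 49.9 CPM at 0 h, 85.0, 87.7 and 92.4 CPM at 2 h and 55.6, 69.4 and 43.8 CPM at 12 h in litters 1, 2 and 3. Sulfiredoxin (Srxn1) had 1.10, 3.29 and 1.62 CPM, 2.90, 5.07 and 4.58 CPM and 1.34, 2.66 and 1.71 CPM. Both were highest at 2 h in every litter. Of the 13 genes listed 12 were tested. At 12 h against 2 h limma called 5 of them lower and 0 higher, beside 1.78% and 1.17% of all genes. The 5 were Gclc, Gclm, Txnrd1, Srxn1 and Hmox1. Against 0 h, 0 members of the list were called, 1 was lower at an unadjusted p under 0.05, and the median was -0.03 (0.00317 with TMM scaling).

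Cdkn1a, an inhibitor of cell cycle kinases, had 111, 136 and 159 CPM at 0 h, 96.7, 124 and 89.7 CPM at 12 h and 149, 167 and 196 CPM at 48 h, and its 0 h and 12 h ranges overlapped. Its level was lower at 12 h than at 0 h in every litter (-0.39 ± 0.13, limma adjusted p = 0.706) and rose from 12 h to 48 h (0.72 ± 0.12, limma adjusted p = 0.0336).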
